A study of Homo sapiens with 9 samples.

Results

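Connexin genes encode the subunits of gap junctions, and 5 of the 62666 genes in the deposited gene table are described here: GJA1, GJB2, GJB5, GJB6 and GJC1. They were chosen on measured values, because GJA1 had no counts in MCF10A cells and over 1000 counts in each MCF10Ca1a library, and because its relatives were measured beside it. The differences of these 5 genes between those 2 lines are therefore given as a description, with no test. Polyadenylated RNA was sequenced from 3 human mammary epithelial cell lines, 3 libraries per line and 9 in all, to compare transcription between stages of a breast cancer model. MCF10A does not form tumours. MCF10AT1 is MCF10A transformed with active HRAS and stands for a premalignant state, and MCF10Ca1a, a descendant that retains HRAS, forms malignant tumours. Each stage is represented by a single line. MCF10A and MCF10Ca1a were grown with 5% horse serum and MCF10AT1 with 2.5%, all in DMEM/F12 with insulin, epidermal growth factor, hydrocortisone and cholera toxin, so serum and line cannot be told apart in any comparison with MCF10AT1.

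Connexins assemble as rings into hemichannels, and those of adjoining cells dock to form a channel that passes ions and small metabolites between the cytoplasms. The family is divided into alpha (GJA), beta (GJB), gamma (GJC), delta (GJD) and epsilon (GJE) groups, and which members a cell makes sets which channels it can build. In the mammary gland, GJA1 is known from the myoepithelial cells and GJB2 from the luminal cells. GJB5 is best known from stratified epithelia such as the epidermis, GJB6 from skin and the inner ear, where it is found with GJB2, and GJC1 from the cardiac conduction system and vascular smooth muscle.

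GJA1 and GJB2 went in opposite directions between MCF10A and MCF10Ca1a, and the stretches just upstream of their starts are shown, which also differ. Whether these sequences bear on the levels was not tested. The RefSeq promoter table (GRCh38.p14) holds 3 of the 5 genes, GJA1, GJB2 and GJB6. Each line below gives 250 bases, 5′ to 3′ on the strand of the gene, up to the base before the RefSeq start.
GJA1, chr6:121435396-121435645, plus strand: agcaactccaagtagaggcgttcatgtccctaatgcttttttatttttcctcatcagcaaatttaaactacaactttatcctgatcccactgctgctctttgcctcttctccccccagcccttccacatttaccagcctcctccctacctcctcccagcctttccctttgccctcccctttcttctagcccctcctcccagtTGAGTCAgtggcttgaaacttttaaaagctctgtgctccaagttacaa
GJB2, chr13:20192939-20193188, minus strand: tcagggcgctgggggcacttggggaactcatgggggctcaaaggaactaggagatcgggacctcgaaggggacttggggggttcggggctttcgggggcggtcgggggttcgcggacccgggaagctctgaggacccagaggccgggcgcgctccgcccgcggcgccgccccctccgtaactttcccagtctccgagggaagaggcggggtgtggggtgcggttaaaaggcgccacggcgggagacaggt
The capitals in the GJA1 sequence mark TGAGTCA, which is TGACTCA read on the other strand, the letters that AP-1 (dimers of FOS and JUN proteins) is known to bind. Its first base lies 48 bases upstream of the start. TGACTCA was searched on both strands and occurs in 4.20% of the 35116 windows of this length in the table. TATAAA, searched in the same way and sharing no position with the other match, occurs in 10.7% of those windows and in neither sequence shown. The GJB2 stretch has no capitals because neither motif was found in it. It holds 25 CpG dinucleotides, whereas the GJA1 stretch holds 1. The median over all windows is 11 CpG. The GJB6 window has 1 CpG and neither motif. These starts are also the first bases of the annotated transcripts ENST00000282561.4 of GJA1 and ENST00000382848.5 of GJB2, which carried most of the counts of their genes. ENST00000282561.4 took 100% of the GJA1 counts in MCF10AT1 and 97.6% on average in MCF10Ca1a, and ENST00000382848.5 took 96.0%, 95.8% and 100% of the GJB2 counts in MCF10A, MCF10AT1 and MCF10Ca1a.

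Library totals ran from 62.9 to 69.5 M (mega-counts) in MCF10A and MCF10AT1 and from 32.9 to 35.2 M in MCF10Ca1a, so a low level is less precisely measured in MCF10Ca1a. All 6 epithelial markers examined (KRT5, KRT8, KRT14, KRT18, CDH1 and EPCAM) had 10 or more counts in every line, and their summed level was 1773 to 2466 TPM in MCF10A, 2668 to 3038 TPM in MCF10AT1 and 2152 to 2233 TPM in MCF10Ca1a. Within this list, the basal keratins KRT14 and KRT5 were lowest in MCF10Ca1a, at 316, 65.7 and 6.26 CPM and at 2548, 3268 and 686 CPM over MCF10A, MCF10AT1 and MCF10Ca1a (CPM is a count scaled to the library total). The luminal keratins KRT8 and KRT18 were lowest in MCF10A, at 184, 849 and 661 CPM and at 347, 835 and 856 CPM, and EPCAM ran 30.3, 141 and 267 CPM. CDH1 is given below with the junction proteins. CD3E was at 0 in all libraries. The summed level of 4 fibroblast markers was 6.39 to 7.17 TPM (transcripts per 1000000, a unit that corrects for length) in MCF10A, 27.6 to 31.4 TPM in MCF10AT1 and 1.87 to 2.25 TPM in MCF10Ca1a. It was carried by DCN in MCF10AT1, which ran 3.61, 27.9 and 0.329 TPM over the lines, while COL1A1 was lower there (3.06, 0.961 and 1.79 TPM). That of 3 endothelial markers was 0.554 to 0.746 TPM, 0.789 to 1.22 TPM and 15.6 to 20.8 TPM, nearly all PECAM1, with CDH5 at 0 in MCF10A and MCF10Ca1a. That of 3 leukocyte markers was 7.58 to 9.41 TPM, 3.39 to 3.94 TPM and 0.178 to 0.281 TPM, nearly all CD14, with PTPRC at 2 counts or fewer in each library. These levels move between the lines together with the connexins, and their part in the results below was not tested. In bulk RNA, fewer cells that express a gene and less RNA per cell cannot be told apart. The labels do not say whether the libraries of a line came from separate cultures, so p-values measure the spread between these libraries only.

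GJA1 (ENSG00000152661.9, chromosome 6, 121435577 to 121449727, plus strand, in GENCODE 29 coordinates as for all genes here) encodes the most widely expressed connexin. It had 0 counts in each of the 3 MCF10A libraries. The counts were 296, 270 and 254 for MCF10AT1 libraries and 1218, 1051 and 1181 for those of MCF10Ca1a. As CPM values (counts per 1000000, with library totals scaled by TMM), the MCF10AT1 level was 4.44, 4.07 and 4.09 CPM (4.20 ± 0.205, SD, n = 3) and the MCF10Ca1a level was 34.0, 31.2 and 33.3 CPM (32.9 ± 1.45, SD, n = 3). The 3 lines did not overlap, and the order was the same in every library. A count of 0 allows up to 3 counts per library, or 0.0454 CPM on average in MCF10A, so the MCF10AT1 level was at least 92.6-fold higher and the MCF10Ca1a level at least 724-fold higher than in MCF10A. The second bound was 442-fold with the deposited scaled counts and 367-fold with counts thinned to the smallest library. MCF10Ca1a exceeded MCF10AT1 by 7.82-fold in CPM and by 9.37-fold in TPM. GJA1P1, a processed copy of GJA1 on another chromosome that could share its reads, was at 0 in all 9 libraries.

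GJB2 (ENSG00000165474.8, chromosome 13, 20187463 to 20193010, minus strand) was higher in MCF10AT1 than in MCF10A, as GJA1 was, but fell in MCF10Ca1a, where GJA1 was highest. Its counts per library were 1913, 1673 and 1618 for MCF10A, then 3032, 2891 and 2720 for MCF10AT1, and only 23, 14 and 24 for MCF10Ca1a. In CPM the MCF10A libraries stood at 29.8, 25.8 and 23.2, those of MCF10AT1 at 45.5, 43.6 and 43.8, and those of MCF10Ca1a at 0.643, 0.416 and 0.677. The lowest MCF10AT1 library lay above the highest MCF10A library, and all MCF10Ca1a libraries lay far below both lines. GJB2 rose in MCF10AT1 against MCF10A by 0.75 on the log2 scale (SE 0.0786, edgeR adjusted p = 1.79e-06). Between MCF10AT1 and MCF10Ca1a it fell by 6.25 (SE 0.141, edgeR adjusted p = 2.00e-13), which is 75.9-fold. The MCF10Ca1a level was 45.0-fold lower than the MCF10A level. The steps to and from MCF10AT1 share its libraries and together make up the contrast on which the genes were chosen.

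**Figure D1:**
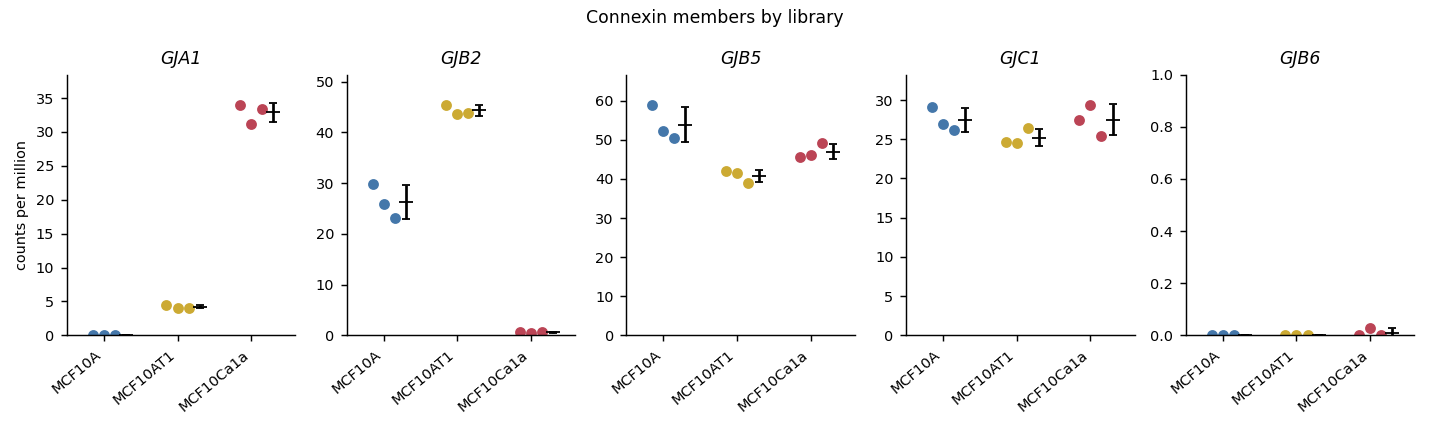
CPM (y axis, a linear scale for each gene) of the 5 connexin genes in the 9 libraries. Dots are libraries, and the bar beside them gives the mean and SD of the 3 libraries of a line. GJA1 stands at 0 in MCF10A and between 31.2 and 34.0 in MCF10Ca1a, GJB2 falls below 1 in MCF10Ca1a, GJB5 and GJC1 stay within 39.0 to 59.0 and 24.5 to 29.4, and GJB6 has 1 count in 1 library.

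GJB5 (ENSG00000189280.3, chromosome 1, 34755047 to 34758512, plus strand) had the highest TPM of the 5 genes in every line and varied least on a fold scale among those with a called change. MCF10A libraries had 59.0, 52.2 and 50.5 CPM, those of MCF10AT1 41.9, 41.5 and 39.0 CPM, and those of MCF10Ca1a 45.6, 46.1 and 49.1 CPM. The lines did not overlap, with MCF10AT1 lowest. GJB5 fell by 0.40 on the log2 scale in MCF10AT1 against MCF10A (SE 0.0623, edgeR adjusted p = 7.78e-05). It rose by 0.20 in MCF10Ca1a against MCF10AT1 (SE 0.0639, edgeR adjusted p = 0.0104), and this call was lost without MCF10AT1 replicate 3 (adjusted p = 0.0644), without MCF10Ca1a replicate 3 (adjusted p = 0.0570) and without the filter on low counts (log2 0.11, adjusted p = 0.141). The MCF10Ca1a level was 1.15-fold lower than that of MCF10A in CPM, and in TPM the libraries of these 2 lines overlapped.

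GJB6 (ENSG00000121742.19, chromosome 13, 20221962 to 20232395, minus strand), the neighbour of GJB2, was all but undetected. It had 1 count in MCF10Ca1a replicate 2 and 0 in the other 8 libraries, and so did not pass the filter on low counts and was not tested. Of the 5 genes, 4 passed that filter. GJA1 passed it through the lines in which it is high.

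GJC1 (ENSG00000182963.11, chromosome 17, 44798448 to 44830816, minus strand) differed between MCF10AT1 and MCF10Ca1a much more per length than by count. The MCF10A libraries had 29.2, 26.9 and 26.2 CPM. MCF10AT1 gave 24.6, 24.5 and 26.4 CPM and MCF10Ca1a gave 27.5, 29.4 and 25.5 CPM, and the libraries of all 3 lines overlapped. The log2 difference was -0.12 between MCF10AT1 and MCF10A (SE 0.0626, edgeR adjusted p = 0.106) and 0.12 between MCF10Ca1a and MCF10AT1 (SE 0.0647, edgeR adjusted p = 0.0925), and neither passed the threshold in this fit. The second difference did pass in 4 other fits of the same counts, at 0.17 with DESeq2 size factors (edgeR adjusted p = 0.0266), 0.17 in the DESeq2 Wald test (adjusted p = 0.0341), 0.16 with counts thinned to the smallest library (edgeR adjusted p = 0.0452) and 0.14 with only the lines compared (edgeR adjusted p = 0.0355). In TPM, the MCF10Ca1a libraries stood at 11.2, 14.9 and 13.3, above the 5.20 to 6.09 TPM of MCF10AT1 and the 7.02 to 7.63 TPM of MCF10A. The log2(TPM + 1) difference between MCF10Ca1a and MCF10AT1 was 1.06 (limma adjusted p = 3.12e-06), where the median gene differed by 0.18 on that scale. With the deposited length-scaled counts it was 0.89 (edgeR adjusted p = 3.61e-06).

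The transcript tables show where the count and the TPM of GJC1 part. ENST00000592524.6 held 90.6%, 97.6% and 65.0% of the gene's counts on average in MCF10A, MCF10AT1 and MCF10Ca1a. Its level was 5.22 ± 0.750 TPM in MCF10A, 4.68 ± 0.0583 TPM in MCF10AT1 and 4.09 ± 0.607 TPM in MCF10Ca1a (SD, n = 3). The 7 other transcripts together had 169, 39.8 and 334 counts on average, against totals of 1813, 1635 and 959 for the gene. In TPM these 7 came to 2.17 ± 0.519 in MCF10A, 1.08 ± 0.469 in MCF10AT1 and 9.02 ± 2.21 in MCF10Ca1a (SD, n = 3), so the higher gene TPM in MCF10Ca1a came from them. In MCF10Ca1a, 1 TPM of ENST00000592524.6 stood for 153 counts and 1 TPM of ENST00000586347.1 for 10.2 counts. ENST00000586347.1 thus reached 4.17 TPM with 42.6 counts on average, a level like that of the major transcript with 625 counts. ENST00000330514.4 had 207 counts (3.20 TPM) and ENST00000587113.1 had 79.2 counts (1.21 TPM) in MCF10Ca1a, against 2.86 and 15.7 counts in MCF10AT1. How surely reads can be assigned among these transcripts was not tested.

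**Figure D2:**
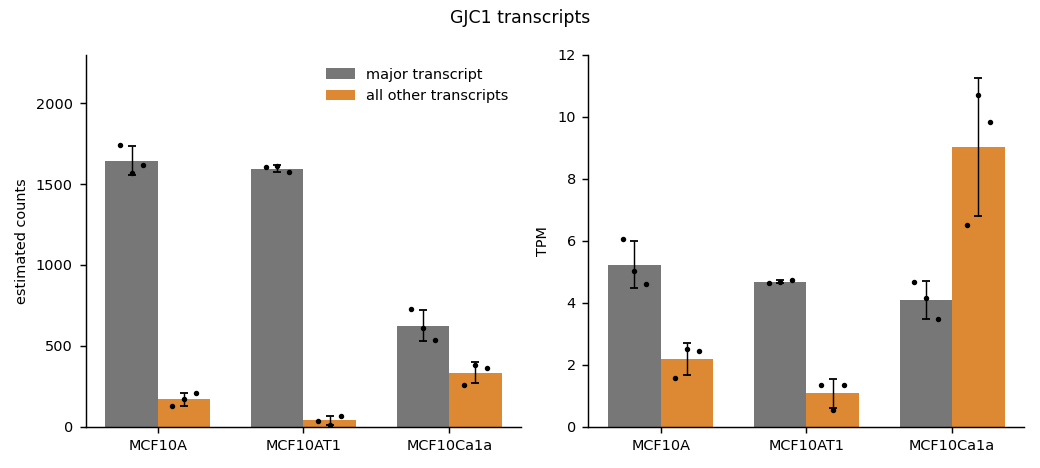
Estimated counts (left) and TPM (right) of the GJC1 transcript with most counts (grey) and of the 7 other transcripts together (orange) in the 3 lines. Bars are means, error bars SDs and dots the 3 libraries. The orange bar of MCF10Ca1a is 334 counts but 9.02 TPM, above the 4.09 TPM of the grey bar.

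Over all genes tested, 61.6% changed in MCF10AT1 against MCF10A (29.8% higher, 31.8% lower) and 78.4% changed in MCF10Ca1a against MCF10AT1 (38.0% higher, 40.3% lower), at an adjusted p under 0.05 in edgeR. Of the 3 members tested at these steps, 2 changed at each, 1 up and 1 down, a share near those backgrounds. In MCF10Ca1a against MCF10A, where the genes were chosen, 80.9% of all genes passed (39.0% higher, 41.9% lower).

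Levels were compared between connexin genes in TPM, which divides by transcript length. The comparison covers the 4 members and the 2 further connexins described below that had 10 or more counts in a library. In MCF10A their order was GJB5, GJB2, GJC1, GJA3 and GJA5, at 50.7, 18.8, 7.40, 3.91 and 0.491 TPM on average. In MCF10AT1 it was GJB5, GJB2, GJC1, GJA5, GJA1 and GJA3, at 34.7, 28.5, 5.76, 4.02, 2.17 and 1.64 TPM. In MCF10Ca1a it was GJB5, GJA1, GJC1, GJA5 and GJB2, at 48.3, 20.4, 13.1, 2.23 and 0.447 TPM. Within each line, the libraries of neighbours in these orders did not overlap. GJB5 led the 6 genes in each line, while GJB2, next in MCF10A and MCF10AT1, came last of the listed genes in MCF10Ca1a, where GJA1 stood next to GJB5.

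**Figure D3:**
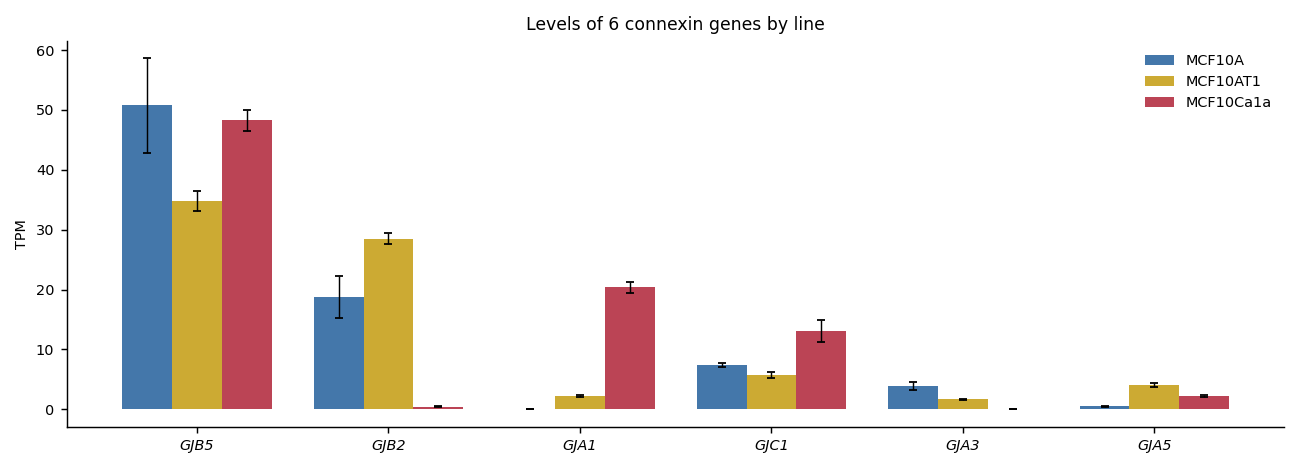
Mean TPM (y axis) of 6 connexin genes by line, with SD over 3 libraries as error bars. GJB5 is the highest bar in each line, GJB2 is seen in MCF10A and MCF10AT1 at 18.8 and 28.5 TPM, and GJA1 comes after GJB5 in MCF10Ca1a at 20.4 TPM.

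Among 13 other connexin genes examined, 2 passed the filter on low counts: GJA3, known from the lens, and GJA5, known from atrial muscle and arterial endothelium. In MCF10AT1 against MCF10A, GJA5 rose from 0.491 ± 0.0754 to 4.02 ± 0.347 TPM (SD, n = 3; log2 3.17, SE 0.109, edgeR adjusted p = 2.31e-11) and GJA3 fell by 1.09 on the log2 scale (SE 0.107, edgeR adjusted p = 1.03e-06). In MCF10Ca1a against MCF10AT1 both fell, GJA5 by 1.10 (SE 0.0980, edgeR adjusted p = 1.43e-07). GJA3 counts were 312, 355 and 327 for MCF10AT1 but 1, 0 and 0 for MCF10Ca1a, a ratio of 535 with an exact 95% counting interval of 95.7 to 21135. GJA3, like GJB2, was therefore near 0 in MCF10Ca1a, but unlike GJB2 it was already lower in MCF10AT1 than in MCF10A. Between MCF10Ca1a and MCF10A, GJA5 was higher (log2 2.07, edgeR adjusted p = 9.06e-10) and GJA3 lower.

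Pannexins, which form channels in the membrane of single cells and are unrelated to connexins in sequence, moved at both steps: PANX1 fell by 0.37 and rose by 0.42, and PANX2 fell by 2.13 and rose by 2.99 (edgeR adjusted p = 1.46e-04, 3.82e-05, 3.96e-08 and 4.16e-10). PANX3 was at 0 in all libraries.

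GJB2 lies between GJA3 and GJB6 in a row of 3 connexin genes on chromosome 13. The starts of GJA3 and GJB2 are 32.0 kb apart and those of GJB2 and GJB6 39.4 kb apart. Of 7 tested genes within 500 kb of the GJB2 start, 2 rose and 2 fell in MCF10AT1 against MCF10A, and 1 rose and 5 fell in MCF10Ca1a against MCF10AT1, against 61.6% and 78.4% of all genes called in either direction. The median log2 changes were 0.057 and -0.59, and over all genes they were -0.0038 and -0.044. GJA3 had the largest fall among them in edgeR. GJA3 had 1 count in all in MCF10Ca1a, and its count ratio was 535, against a 75.9-fold fall of GJB2. The exact 95% interval of that ratio, 95.7 to 21135, lay above 75.9 but covers counting error only. On log2(TPM + 1) the order was reversed, at -1.39 for GJA3 and -4.35 for GJB2. The added 1 limits the fall of a gene that starts at 1.64 TPM, as GJA3 did, so that scale cannot rank these falls. CRYL1, a crystallin-related enzyme and the nearest tested protein-coding gene on the far side of GJB6, fell by 0.45 and then by 0.37 on the log2 scale (edgeR adjusted p = 2.83e-04 and 0.00169), the second lost in limma on log2(TPM + 1) (-0.098, adjusted p = 0.260).

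**Figure D4:**
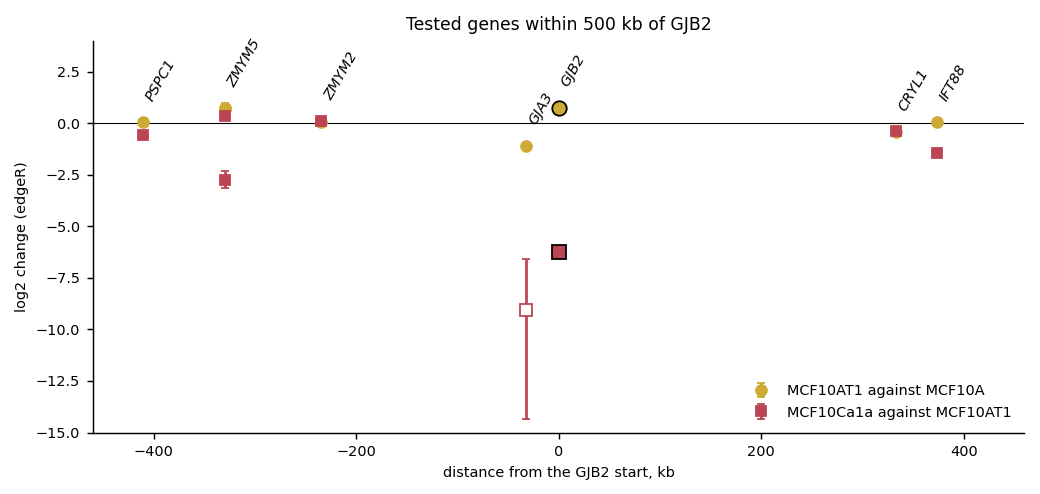
Log2 change (y axis, edgeR, with SE) of tested genes against the distance of their start from the GJB2 start in kb (x axis), for MCF10AT1 against MCF10A (circles) and MCF10Ca1a against MCF10AT1 (squares). GJB2 has a black outline, and the open square is the count ratio of GJA3 with its exact 95% counting interval. GJA3 and GJB2 drop far below the genes on either side, among which a gene with no symbol at -2.74 is the lowest.

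ZSCAN20, the nearest tested protein-coding gene on the lower-coordinate side of GJB5, lies 1282 kb away, and it fell by 0.56 and rose by 0.87 (edgeR adjusted p = 2.49e-05 and 1.55e-07). GJA1 has 1 tested gene within 500 kb, TBC1D32, a ciliary gene whose start is 101 kb away. TBC1D32 went from 3.71 to 2.61 and then 4.40 CPM, a fall of 0.51 and a rise of 0.75 on the log2 scale (edgeR adjusted p = 4.92e-04 and 1.09e-05), a range far smaller than that of GJA1. HSF2, a heat shock factor 964 kb to the other side, stood at 18.5, 20.4 and 21.3 CPM. Around GJC1, 29 genes were tested, of which 3 rose and 14 fell in MCF10AT1 against MCF10A and 16 rose and 7 fell in MCF10Ca1a against MCF10AT1, with medians of -0.33 and 0.74 (-0.0038 and -0.044 over all genes). The shares called in either direction are near the 61.6% and 78.4% of all genes. The nearest tested protein-coding genes, 1 on each side, are CCDC103, needed for motile cilia, and ADAM11, which stood at 1.96, 1.41 and 0.0673 CPM and at 0.259, 0.0760 and 0.250 CPM in the 3 lines. CCDC103 overlaps FAM187A on the same strand in the annotation, so its counts are uncertain.

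Proteins that bind connexins, carry them to the membrane or modify them were followed in a list of 25 genes, all of which were tested. In MCF10AT1 against MCF10A, 6 rose and 5 fell (44.0% called, against 61.6% of all genes; median log2 -0.0070, all genes -0.0038). Ezrin (EZR), which links membrane proteins to actin, rose by 0.54 (SE 0.0762, edgeR adjusted p = 3.38e-05), and caveolin 1 (CAV1), a coat protein of caveolae, by 0.52 (SE 0.0540, edgeR adjusted p = 1.60e-06), within the error of EZR. Consortin (CNST), which binds connexins in the trans-Golgi network, fell by 1.52 (SE 0.0512, edgeR adjusted p = 1.95e-11). In MCF10Ca1a against MCF10AT1, 13 rose and 9 fell (88.0% called, against 78.4% of all genes; median log2 0.18, all genes -0.044). E-cadherin (CDH1), the adhesion receptor of epithelial junctions, rose from 145 ± 2.77 to 749 ± 19.7 CPM (SD, n = 3; log2 2.37, SE 0.0970, edgeR adjusted p = 4.19e-11), and the tight junction scaffold TJP3 rose within the error of that (log2 2.28, SE 0.209). CCN3, a secreted protein that binds the tail of GJA1, fell from 229 counts in all in MCF10AT1 to 4 in MCF10Ca1a, a ratio of 30.8 with an exact 95% counting interval of 11.9 to 114. Its log2(TPM + 1) difference was -0.69, on a scale where the added 1 limits the fall of a gene that starts at 0.716 TPM. CNST rose at this step by 1.78 (edgeR adjusted p = 1.78e-12), so that its CPM ran 45.0, 15.7 and 53.8 over the lines. CAV1 and EZR fell at this step, by 2.09 and 0.42 (edgeR adjusted p = 8.57e-13 and 2.01e-04). The fall of EZR was lost in limma on log2(TPM + 1) (-0.14, adjusted p = 0.265). The CPM of CAV1 ran 830, 1193 and 280 over the lines, and that of EZR 224, 325 and 244. Between MCF10Ca1a and MCF10A, 13 of the 25 were higher and 8 lower (84.0% called, near the 80.9% of all genes), with CDH1 (log2 2.36) and TJP3 (log2 2.36) alike at the top and CCN3 lowest in edgeR.

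Of 14 transcription factors known to act on connexin genes, all tested, 8 rose and 3 fell in MCF10AT1 against MCF10A (78.6% called, against 61.6% of all genes; median log2 0.29, all genes -0.0038). TBX2, a T-box repressor, rose most, from 1.69 to 6.34 CPM (log2 1.91, SE 0.135, edgeR adjusted p = 3.47e-08), and its relative TBX3 fell most, by 0.58 (SE 0.0746, edgeR adjusted p = 1.51e-05). In MCF10Ca1a against MCF10AT1, 5 rose and 7 fell (85.7% called, against 78.4% of all genes; median log2 -0.13, all genes -0.044). SNAI1, a zinc-finger repressor of epithelial genes, rose most, from 99, 110 and 99 counts to 294, 316 and 333 counts in the smaller MCF10Ca1a libraries (log2 2.51, SE 0.139, edgeR adjusted p = 9.44e-10). FOS fell from 284 to 70.8 CPM (log2 -2.01, SE 0.0493, edgeR adjusted p = 3.89e-13), after a rise of 0.84 at the first step. The falls of TBX2 (log2 -1.99, SE 0.147) and TBX3 (log2 -1.93, SE 0.0943) were within their errors of that of FOS, and the order of the 3 changed with the setting. The list holds 6 genes of the JUN and FOS families, whose products form the AP-1 dimers, and at this step JUN, JUNB and FOSL2 rose by 0.80, 1.06 and 1.43 (edgeR adjusted p = 9.00e-08, 3.53e-09 and 1.64e-10), FOS and JUND fell, and FOSL1 did not pass the threshold (-0.045). At the first step JUNB, JUND, FOSL1 and FOSL2 rose beside FOS, by 0.45, 0.16, 0.42 and 0.50 (edgeR adjusted p = 5.38e-05, 0.0469, 1.75e-05 and 1.99e-05), and JUN did not pass (0.11). A link of these genes to GJA1 was not tested. Between MCF10Ca1a and MCF10A, 6 of the 14 were higher, led by SNAI1, and 7 lower, led by TBX3 (92.9% called, against 80.9% of all genes).

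The genes whose CPM followed each connexin most closely over the 9 libraries were ranked by Pearson's r of log2(CPM + 1) among 13095 genes with a mean of 100 or more counts in a line. For GJA1 they were CALB2, a calcium-binding protein, at r = 0.9998, BHLHE41 at 0.9996 and ENPP4 at 0.9995, and 208 genes had r over 0.99. CALB2 ran 0.0454, 13.2 and 261 CPM over the lines. For GJB2 they were MAMLD1, MMACHC and TENM4 (r = 0.9991, 0.9989 and 0.9988), with 312 genes over 0.99. For GJB5 they were HDGF, NKRF and FAM114A1 (r = 0.9917, 0.9914 and 0.9913), with 4 genes over 0.99. GJC1, with its flat profile, reached no more than 0.8637, with TRIM62. Among the connexins themselves, r was -0.8072 between GJA1 and GJB2, -0.9737 between GJA1 and GJA3 and 0.9185 between GJB2 and GJA3. These coefficients describe 9 libraries in 3 groups, so that any gene with the same order and spacing of the 3 line means comes close to 1.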

How the data were processed

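Poly-A RNA of 3 cell lines was sequenced in 9 libraries, made with a stranded Illumina mRNA kit, per the labels' protocols. Salmon and hg38 are named in the submitters' processing notes; versions and the annotation are not given in the sources used here. The authors deposited estimated counts and TPM per gene and per transcript, and 2 further tables of estimated gene counts, named as length-scaled and as scaled. All columns were matched to libraries by name.

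The deposited estimated counts were rounded and filtered with filterByExpr (minimum count 10, minimum total 15), which left 17910 of 62666 genes. The test was edgeR's quasi-likelihood test (edgeR 4.0.16, R 4.3.3) with TMM normalisation, 9 libraries in 1 fit, and Benjamini-Hochberg adjustment over all genes tested at 0.05. CPM values use TMM-scaled totals, and library totals limit low levels. A count of 0 was given a floor of 3 counts per library, and intervals and floors cover counting error only. The deposited TPM values were used as they are. The fits were tested on simulated data. Positions are those of GENCODE 29 (GRCh38), matched through unversioned Ensembl identifiers for 58227 genes; transcripts needed the same version. Promoters are from RefSeq (GRCh38.p14).

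Alternatives were DESeq2 1.42.0 size factors and Wald test, no filter, the length-scaled and scaled counts, a replicate block, limma 3.58.1 on log2(TPM + 1) and log2(TPM + 0.1) with TPM over 0.5 in 3 or more libraries, and on log2(TPM + 1) with no such filter, thinning to the smallest library, fits of 2 lines at a time, and leaving out each library. Equal replicate numbers did not pair libraries: the 9 correlations of their deviations ran from -0.0597 to 0.0451, none over 0.1. Named genes are the 5 members, connexins and pannexins with 10 or more counts in a library, the list genes that rose and fell most per comparison, the nearest tested protein-coding gene on each side of a member, and the 3 genes most like each member. Some further genes of the lists are named beside those that rose or fell most. Some connexin genes, and shares of a summed connexin level, are not reported here, nor is the neighbourhood of GJB5, and no list counts these genes. The members and lists were chosen with earlier results of these data known.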

Additional observations from a re-analysis of the deposited data

How the results depend on the processing

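In all, 11 settings other than the one reported were run, and each of the 9 libraries was left out in turn. The changes of GJB2 and the fall of GJB5 in MCF10AT1 against MCF10A kept their direction and stayed past the threshold in all of them. GJB2 ran from 0.59 to 0.78 at the first step and from -6.33 to -4.35 at the second over the 11 settings. With a library left out, GJB5 ran from -0.45 to -0.33 at the first step and from 0.16 to 0.22 in MCF10Ca1a against MCF10AT1, where its call was lost without MCF10AT1 replicate 3 and without MCF10Ca1a replicate 3, and with no filter it was 0.11 (adjusted p = 0.141). On log2(TPM + 1) it was 0.46 and on log2(TPM + 0.1) 0.47, both past the threshold, on scales where the median gene was itself higher as given below. The number of members called at that step then fell from 2 to 1 with no filter, and ran from 1 to 2 with a library left out. It was 3 in 9 of the 11 settings, where GJC1 passed as well.

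GJC1 passed the threshold in several settings. In MCF10AT1 against MCF10A it was -0.31 on log2(TPM + 1) (adjusted p = 0.0220) and -0.36 on log2(TPM + 0.1) (adjusted p = 0.0200). In MCF10Ca1a against MCF10AT1 it was 0.17 with DESeq2 size factors and in the DESeq2 Wald test, 0.16 thinned, 0.14 with only the lines compared, 0.89 with length-scaled and 0.90 with scaled counts, 1.06 on log2(TPM + 1) with and without the filter, and 1.17 on log2(TPM + 0.1). With a library left out it ran from 0.070 to 0.17, and without MCF10Ca1a replicate 3 it passed (adjusted p = 0.0364). Against MCF10A, with no test, it was 0.66 with length-scaled counts, 0.67 with scaled counts, 0.74 on log2(TPM + 1) with and without the filter and 0.81 on log2(TPM + 0.1), against 0.0024 as reported. The transcript lengths that enter these tables differ as described for GJC1; for the other settings the cause was not tested.

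On log2(TPM + 1), with and without the filter, GJA1 in MCF10Ca1a against MCF10AT1 was 2.75 (3.17 on log2(TPM + 0.1), 2.97 as reported), GJB2 in MCF10Ca1a against MCF10A was -3.76 (-5.49 as reported), and GJB5 there was -0.061 (-0.062 on log2(TPM + 0.1), -0.20 as reported). The pseudocount compresses low levels by construction, and on these scales the median of all genes in MCF10Ca1a against MCF10AT1 was 0.18 or 0.21, not -0.044. The lower bound of GJA1 in MCF10Ca1a against MCF10A was 442-fold with scaled counts and 367-fold thinned, where fewer counts lower it by construction, and it ran from 706-fold to 742-fold with a library left out.

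With the replicate block, GJB5 in MCF10Ca1a against MCF10AT1 was 0.20 (adjusted p = 0.0115) and GJB2 -6.25, and the block changed no call of a member. Of 480 counts of called genes in the lists and neighbourhoods, 467 stayed within 1.5 times the reported count. Of the 13 others, 12 are the single gene near GJA1, which lost its call in MCF10Ca1a against MCF10A. The other is the number of partner genes called in MCF10AT1 against MCF10A, which was 7 instead of 11 in limma on log2(TPM + 1) with no filter. Depth limits GJB2, GJA3 and GJB6 in MCF10Ca1a, where they had 24 counts or fewer in a library.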
